A study of Mus musculus with 8 samples.

Results

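Ribosome biogenesis is the production of ribosomes in and around the nucleolus, and 46 genes of this pathway, 7 of them for RNA polymerase I, were followed in activated mouse CD4 T cells. They were taken by name from a list of pathway members: 9 genes for snoRNPs, 13 for the small ribosomal subunit, 14 for the large subunit and 3 that act at several steps. The list was chosen with earlier results of these data known. Of the 46 genes, 45 had a probe set that the platform annotation gives to a single gene, and all 45 were among the 12091 genes tested out of 18193 genes named. Mrto4, a large subunit assembly factor, shares its probe set with other genes and has no value here.

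RNA polymerase I transcribes the long precursor of ribosomal RNA, which small nucleolar ribonucleoproteins (snoRNPs) modify and help to cleave, and a large set of assembly factors then fold, trim and export the small and the large subunit. T cells raise this pathway when they are activated and enter growth, and the transcription factor Myc is a known activator of many of its genes. Cyclic AMP, acting through protein kinase A, is a known brake on T cell activation.

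Expression was measured on 8 Affymetrix arrays in 4 groups of 2. CD4 T cells were purified on an autoMACS magnetic sorter from the spleens of 8-week-old mice, wild type (WT) or deficient in IFN-gR1 (KO), the ligand-binding chain of the interferon-gamma receptor. All 4 groups were activated with antibodies to CD3 and CD28 for 15 h. During the last 3 h they received db-cAMP (dibutyryl cyclic AMP, a form of cyclic AMP that enters cells) or the vehicle. The labels name no allele for the deficiency. They call the 2 arrays of a group biological replicates without naming the animals or cultures behind them, and each p-value here reflects only the scatter among these arrays. For the 4 KO arrays the titles, source names and genotype entries say deficient, while the free-text descriptions say WT. The first 3 were followed here.

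The Ifngr1 probe set read 905 and 873 on the WT vehicle arrays, 7319 and 8201 on the WT db-cAMP arrays, 439 and 378 on the KO vehicle arrays and 1056 and 1272 on the KO db-cAMP arrays. The KO arrays were lower under each treatment, but KO with db-cAMP lay above WT with vehicle, and the position of the probe set relative to the deleted part is unknown here. Replicate arrays correlated at 0.961 to 0.977 over the genes tested. All 6 CD4 T cell markers were measured (Cd3d, Cd3e, Cd3g, Cd4, Cd28 and Cd5). With db-cAMP in WT cells Cd3e, Cd3g and Cd5 fell, by 0.42, 0.32 and 0.25 on the log2 scale, and Cd28 rose by 0.35. In KO cells Cd28 rose by 0.39, and the interaction passed for Cd3e and Cd5. With vehicle Cd3d and Cd3g were lower and Cd28 higher in KO than in WT cells, and with db-cAMP Cd3d was lower and Cd3e, Cd5 and Cd28 higher. Of 25 markers of CD8 T cells, B cells, NK cells, myeloid cells, dendritic cells, erythroid cells and platelets, 21 were measured and 13 tested, and in limma 0 changed with db-cAMP in WT cells (1 at an unadjusted p under 0.05) or in KO cells (0 unadjusted). Their summed signal ran from 1785 to 1902 in WT vehicle, 1885 to 2050 in WT db-cAMP, 1597 to 1710 in KO vehicle and 1390 to 1580 in KO db-cAMP. Signals are linear and scaled per array, so a change in total RNA per cell is not measured. In bulk samples fewer cells of a type and less RNA per cell cannot be told apart.

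Sequence around the start sites is shown for 5 members because the pathway's known activator Myc binds the E-box, CACGTG, and the cyclic AMP factor CREB binds the cAMP response element (CRE), TGACGTCA. Both motifs read the same on both strands and neither contains the other. The RefSeq promoter table (build GRCm38.p6, 300-base windows from 250 bases before to 50 after a gene's start) matched 41 of the 46 genes in 50 windows. An E-box was present in 10 of these 41 genes, 24.4%, and in 11.5% of the 9824 genes tested that have a window. By window the shares were 20.0% for the members, 9.69% for genes tested and 7.15% for all 32851 windows. The other ribosome biogenesis genes had shares near those of the members, 18.7% of 107 genes and 19.0% of 121 windows. A CRE was present in 2 of the 41 genes, 4.88%, against 3.46% of genes tested, 4.67% of the other ribosome biogenesis genes and 1.79% of all windows. Of 11 E-boxes in members, 4 lay before the start, in Rrn3 (2 of them), Imp4 and Nop2, and 7 after it. Upstream stretches are printed 5′ to 3′ on the gene's strand with the motif in capitals, E-boxes first.
Rrn3: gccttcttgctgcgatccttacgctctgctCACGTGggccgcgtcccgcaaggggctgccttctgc
Imp4: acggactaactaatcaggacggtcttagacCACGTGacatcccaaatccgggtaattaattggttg
Nop2: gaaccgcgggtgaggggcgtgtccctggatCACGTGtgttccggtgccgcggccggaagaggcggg
Ppan: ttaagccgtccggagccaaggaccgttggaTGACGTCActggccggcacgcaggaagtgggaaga
Noc4l: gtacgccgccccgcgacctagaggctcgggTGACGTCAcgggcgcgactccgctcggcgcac
The stretches lie at chr16:13780621-13780686 (plus strand) for Rrn3, chr1:34439678-34439743 (plus) for Imp4, chr6:125131793-125131858 (plus) for Nop2, chr9:20888110-20888174 (plus) for Ppan and chr5:110653383-110653444 (minus) for Noc4l. The motif begins 48, 121, 60, 35 and 32 bases before the start in these genes. A match describes the letters only, and no binding was measured.

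db-cAMP lowered most of the pathway in WT cells. Of 45 members 39 fell and 0 rose at an adjusted p under 0.05 (limma with Benjamini-Hochberg adjustment over all genes tested), where 18.6% of all genes tested fell and 16.4% rose. At an unadjusted p under 0.05 the members' counts were 40 and 0. The members' median log2 difference was -0.96, which leaves 51.6% of the vehicle level, beside a median of 0.01 over all genes. In 19 members a fall that passed was 2-fold or more, as it was in 536 of all 12091 genes tested. On 40 of 45 members both db-cAMP arrays lay below both vehicle arrays, an arrangement found in 30.9% of all genes tested. Relative to the mean of the WT vehicle arrays, the members' median stood at -0.92 and -0.98 on the WT db-cAMP arrays, at -0.11 and -0.05 on the KO vehicle arrays and at -0.45 and -0.4 on the KO db-cAMP arrays. Among the 500 largest falls of the 12091 genes tested in WT cells 13 of the 45 members appeared, and among those in KO cells 2. Some control signals moved with db-cAMP as well. The Gapdh 3-prime to 5-prime ratio stood at 0.769 and 0.738 against 0.734 and 0.741 in WT cells. In KO cells it stood at 0.779 and 0.797 against 0.85 and 0.817. The 18S rRNA probe sets averaged 28574 and 25511 on the WT vehicle arrays and 37627 and 36892 on the WT db-cAMP arrays, and 27 poly-A control probe sets averaged 1283 and 1456 against 1583 and 1911. The 3-prime 18S probe set divided by the 5-prime one stood at 0.386 and 0.353 against 0.441 and 0.41 in WT cells, and at 0.522 and 0.513 against 0.623 and 0.548 in KO cells. Their part in the result was not tested.

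**Figure D1:**
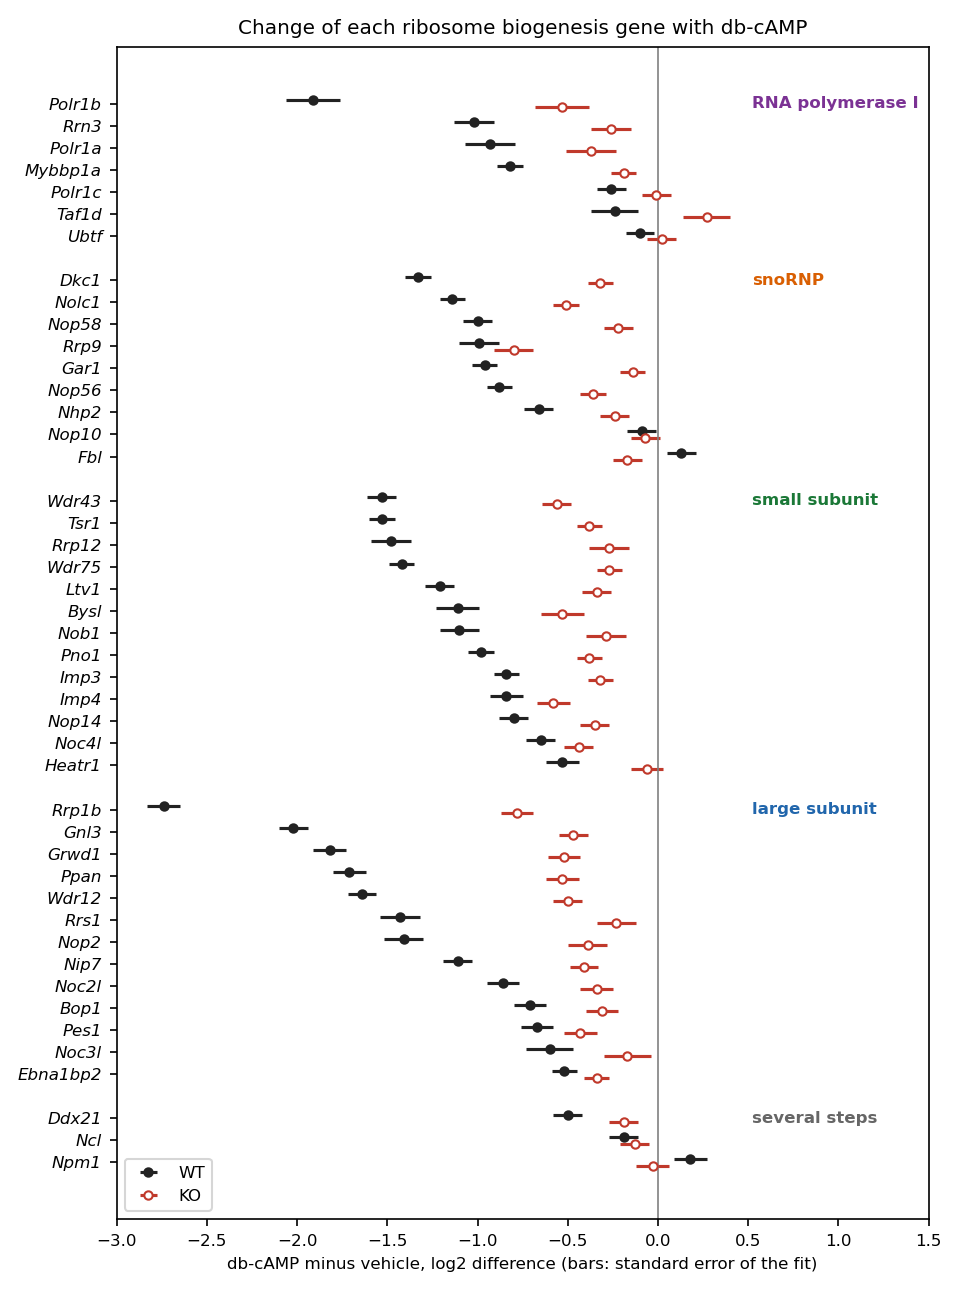
Log2 difference between db-cAMP and vehicle (x axis) for each of the 45 members (y axis), by step, in WT (filled) and KO (open); bars are standard errors of the fit. The WT points lie left of the KO points for 43 of 45 members, and Rrp1b lies farthest left at -2.74.

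RNA polymerase I genes fell in 5 of 7 cases, with a median of -0.82. Polr1b, the second largest subunit of the enzyme, read 1718 and 1763 on the WT vehicle arrays, 568 and 371 with db-cAMP, 2016 and 1967 on the KO vehicle arrays and 1324 and 1433 with db-cAMP. The groups did not overlap within either genotype, and the KO db-cAMP arrays stayed above both WT db-cAMP arrays. The fall was -1.91 ± 0.15 (log2 ± SE, adjusted p = 4.18e-07) in WT cells and -0.53 ± 0.15 (adjusted p = 0.0489) in KO cells. Rrn3, the initiation factor TIF-IA that brings the enzyme to its promoter and one of the genes with an upstream E-box, read 1247 and 1318 against 691 and 572 in WT cells, and 1491 and 1419 against 1172 and 1251 in KO cells. Its WT difference was -1.02 ± 0.11. Polr1a, the largest subunit, stood at -0.93 ± 0.14, Mybbp1a, a nucleolar Myb-binding protein, at -0.82 ± 0.07 and Polr1c, a subunit shared with RNA polymerase III, at -0.26 ± 0.08, and all 3 passed. With the mean of its probe sets Polr1a stood at -0.46 and did not pass. Polr1c did not pass with quantile normalization (-0.22), without the intensity trend in the variance (-0.26), or when the first or second WT vehicle array or the first WT db-cAMP array was left out (-0.29, -0.24 and -0.21). In KO cells these 3 and Rrn3 did not pass, with values of -0.37, -0.19, -0.01 and -0.26.

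Ubtf and Taf1d, which act at the ribosomal RNA gene promoter, did not pass in either genotype. Ubtf, the HMG-box protein that marks active ribosomal RNA genes, read 3059 and 3316 in WT vehicle, 3083 and 2864 in WT db-cAMP, 3965 and 4197 in KO vehicle and 4156 and 4135 in KO db-cAMP. Its arrays overlapped between treatments in both genotypes. The log2 differences were -0.1 ± 0.08 in WT (adjusted p = 0.372) and 0.02 ± 0.08 in KO. Taf1d, a subunit of the selectivity factor SL1, read 2783 and 2280 against 1971 and 2308 in WT cells and 2157 and 2438 against 3091 and 2461 in KO cells. Neither difference passed, at -0.24 ± 0.13 and 0.27 ± 0.13. Taf1d has 7 probe sets, and they did not move together in WT cells: 3 fell, 1 rose and 3 did not pass, from -0.85 to 0.6.

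Among snoRNP genes 7 of 9 fell, with a median of -0.96. Dkc1, the pseudouridine synthase dyskerin, read 15621 and 16715 in WT vehicle, 6692 and 6159 in WT db-cAMP, 15159 and 15917 in KO vehicle and 12675 and 12273 in KO db-cAMP. Both WT db-cAMP arrays lay far below the other 6. The fall was -1.33 ± 0.07 (adjusted p = 1.02e-08) in WT and -0.32 ± 0.07 (adjusted p = 0.0142) in KO. Dyskerin's partners Gar1 and Nhp2 fell by 0.96 and 0.66 on the log2 scale, and Nolc1, a chaperone of snoRNPs, by 1.14. Of the box C/D core proteins, Nop56 fell by 0.88 and Nop58 by 1. Nop58 read 12841 and 12942 against 6243 and 6675 in WT and 16342 and 17366 against 15552 and 13497 in KO, so its KO vehicle arrays lay above both WT vehicle arrays.

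Rrp9, the protein bound to the U3 snoRNP that directs early cleavages, changed by a similar amount in both genotypes. It read 2236 and 2208 in WT vehicle, 1167 and 1072 in WT db-cAMP, 2070 and 2109 in KO vehicle and 1068 and 1336 in KO db-cAMP. The db-cAMP arrays of the genotypes overlapped. The falls were -0.99 ± 0.11 and -0.8 ± 0.11, and their difference was 0.18 ± 0.15 (adjusted p = 0.533), which does not show that they are equal.

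Fbl and Nop10 were the snoRNP genes that did not pass as lower in WT cells in the fit as reported. Fbl, the box C/D methyltransferase fibrillarin, read 23115 and 27452 against 27265 and 27989 in WT and 22792 and 24276 against 21816 and 20077 in KO. The WT groups overlapped, and the differences were 0.13 ± 0.08 and -0.17 ± 0.08. Nop10, the smallest box H/ACA core protein, stood at -0.09 ± 0.08 and -0.07 ± 0.08. Neither of the probe sets of Fbl passed in WT cells, nor did those of Nop10. With quantile normalization Nop10 passed at -0.26 and Fbl did not at -0.08. Both are bright, with mean WT vehicle signals of 25284 for Fbl and 32064 for Nop10, beside 25462 for Nhp2, which fell. Across the 45 members the mean log2 signal and the WT change correlated at a Pearson r of 0.44 and a Spearman rho of 0.34. Over all genes tested these were -0.08 and -0.09. The part of signal level, up to the top of the range, was not tested.

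All 13 small subunit genes fell in WT cells, with a median of -1.1. Tsr1, a GTPase-like factor of late 40S particles, read 8471 and 8413 in WT vehicle, 3026 and 2799 in WT db-cAMP, 8045 and 8096 in KO vehicle and 6058 and 6320 in KO db-cAMP. Its fall was -1.53 ± 0.07 (adjusted p = 2.39e-09) in WT and -0.38 ± 0.07 (adjusted p = 0.00376) in KO. Wdr43 and Wdr75, scaffold proteins of the first U3-containing complexes, fell by 1.53 and 1.42. Rrp12, an export factor, fell by 1.48. Among factors that ride on the pre-40S particle to the cytoplasm, Ltv1 fell by 1.21, Bysl by 1.11, the nuclease Nob1 by 1.1 and its partner Pno1 by 0.98. The U3-associated Imp3 and Imp4 each fell by 0.84. Nop14 and its partner Noc4l fell by 0.8 and 0.65, and Heatr1, a large scaffold of the early particle, fell by 0.53 and did not pass with the mean of its probe sets, at -0.35. The spread of this step, from -1.53 to -0.53, was narrower than that of the large subunit genes.

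All 13 measured large subunit genes fell in WT cells as well, with a median of -1.41 and the largest single falls. Rrp1b, a nucleolar protein related to yeast Rrp1, read 4208 and 4048 in WT vehicle, 662 and 571 in WT db-cAMP, 3296 and 3471 in KO vehicle and 1944 and 1994 in KO db-cAMP. In WT cells 15% of the vehicle level remained, and in KO cells 58.2%. The log2 differences were -2.74 ± 0.09 (adjusted p = 2.55e-10), the 23rd largest fall of all genes tested in WT cells, and -0.78 ± 0.09 (adjusted p = 0.000125). Its 3 probe sets all fell in WT cells, by -2.74, -1.71 and -1.13. The genotypes differed less on the last of these, which read 1449 and 1523, 631 and 727, 2605 and 2807, and 1520 and 1666 in the same order of groups, with an interaction of 0.36 that did not pass (adjusted p = 0.198). Gnl3, the GTP-binding protein nucleostemin, read 11978 and 10987, then 2764 and 2888, 9277 and 9464, and 7267 and 6287, in the same order of groups. Every group of Gnl3 was separate from the other 3, and the differences were -2.02 ± 0.08 in WT and -0.47 ± 0.08 in KO.

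Grwd1, a WD-repeat histone and ribosomal protein chaperone, read 3489 and 3602 in WT vehicle, 1098 and 913 in WT db-cAMP, 3880 and 3782 in KO vehicle and 2656 and 2701 in KO db-cAMP, a fall of 1.82 in WT. Ppan, which has an upstream CRE, read 2924 and 3227, 902 and 965, 2749 and 3025, and 1992 and 1995, a fall of 1.71. For both genes the KO db-cAMP arrays sit between the vehicle arrays and the WT db-cAMP arrays. Of the PeBoW complex, which processes the 5.8S and 28S precursors, Wdr12 fell by 1.64, Bop1 by 0.71 and Pes1 by 0.67 on the probe sets used. The other tested Wdr12 probe set stood at -0.79, so the larger Wdr12 fall rests on 1 probe set. With the mean of all probe sets Wdr12 and Bop1 did not pass, at -0.58 and -0.64. Rrs1, which brings in the 5S particle, fell by 1.43, the RNA methyltransferase Nop2 by 1.41 and the late-acting factor Nip7 by 1.11. The nucleolar assembly factors Noc2l, Noc3l and Ebna1bp2 fell by 0.86, 0.6 and 0.52.

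The 3 genes that act at several steps had a median of -0.19. Ddx21, an RNA helicase, fell from 7297 and 6456 to 4947 and 4740 in WT cells, by -0.5 ± 0.08 (adjusted p = 0.000137), and stood at -0.19 ± 0.08 in KO cells. A second Ddx21 probe set changed more. It read 6944 and 6806 in WT vehicle, 1924 and 2483 in WT db-cAMP, 6581 and 5396 in KO vehicle and 4761 and 4574 in KO db-cAMP, a fall of 1.65 in WT with an interaction of 1.3 (adjusted p = 5e-04, limma over all probe sets). Npm1, the abundant nucleolar chaperone nucleophosmin, read 70468 and 76089 in WT vehicle, 76777 and 89058 in WT db-cAMP, 48910 and 53616 in KO vehicle and 54098 and 46449 in KO db-cAMP. The genotypes were separate and the treatments were not told apart by the test, with differences of 0.18 ± 0.09 (adjusted p = 0.175) and -0.03 ± 0.09. Ncl, nucleolin, read 52267 and 54619, 44800 and 48722, 34903 and 39137, and 34326 and 33272 in that order. The WT treatments did not overlap, yet the difference of -0.19 ± 0.08 missed the threshold (adjusted p = 0.0634) and passed at -0.38 with quantile normalization. Of 5 Ncl probe sets 3 fell in WT cells, 1 of them by 1.24.

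**Figure D2:**
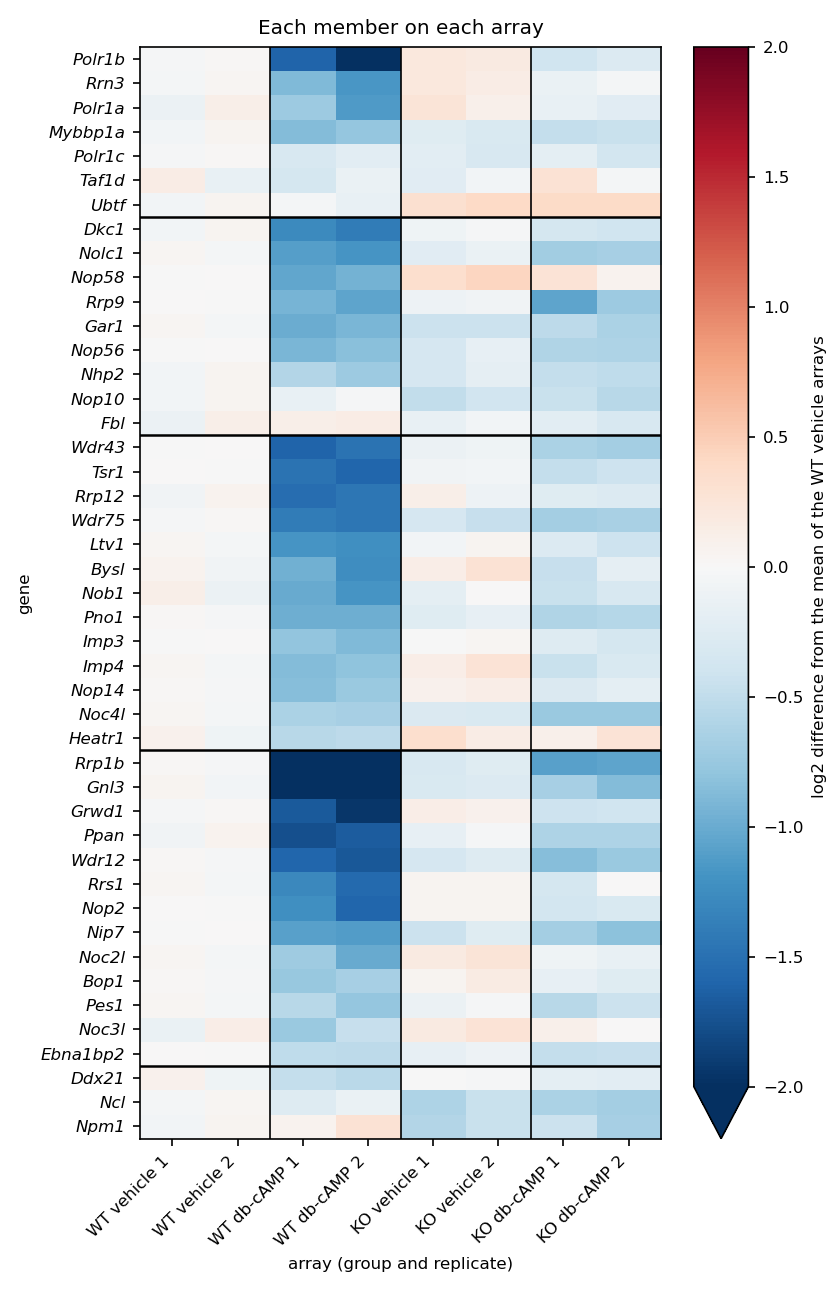
Each member (rows, by step) on each of the 8 arrays (columns): colour gives the log2 difference from the mean of the WT vehicle arrays. Blue is a lower and red a higher signal. The colour scale ends at a log2 difference of -2, which Rrp1b, Polr1b and Gnl3 pass on WT db-cAMP arrays. Both WT db-cAMP columns are dark blue for most rows and the KO db-cAMP columns paler, while Ubtf, Nop10, Ncl and Npm1 change colour between genotypes.

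In a fit over all 26527 probe sets, 93 probe sets of members were tested, and in WT cells 73 fell, 1 rose and 19 did not pass. Of 31 members with several tested probe sets, 20 fell on every one. The probe sets of Ebna1bp2, Heatr1, Taf1d, Fbl and Ubtf differed in sign and those of Ncl, Polr1a, Bop1 and Noc4l in call. The second Ebna1bp2 probe set was dim, at 27.3 and 54.6 in WT vehicle against 94.7 and 81.5 in WT db-cAMP, and did not pass in limma (1.07, adjusted p = 0.169). With the mean of all its probe sets in place of the brightest, Ebna1bp2 stood at 0.54 in WT cells and did not pass.

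**Figure D3:**
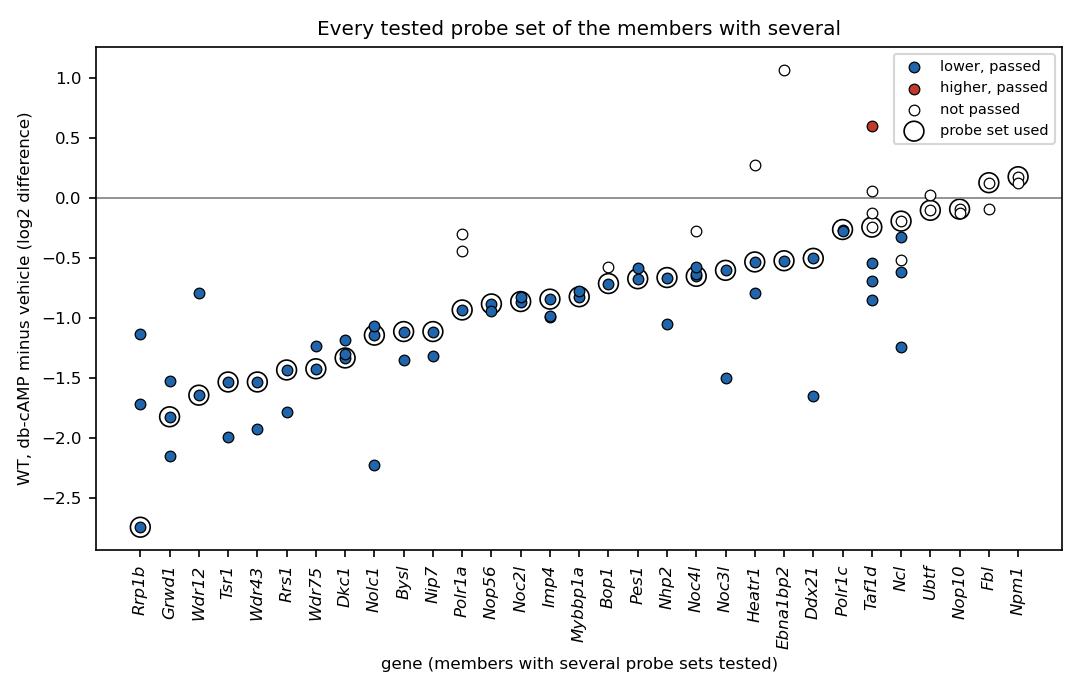
WT log2 difference (y axis) of every tested probe set of the 31 members with several (x axis, ordered by the probe set used, which is circled). Filled blue points fell, the red point rose and white points did not pass; most genes have all their points below 0, and Taf1d spans from -0.85 to 0.6.

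db-cAMP also lowered members in KO cells, by less. Of 45 members 26 fell and 0 rose (34 and 0 at an unadjusted p under 0.05, limma), where 3.68% of all genes tested fell and 4.7% rose, and the median was -0.34, with 79.1% of the vehicle level remaining. None of the 26 reached a 2-fold fall, and few genes did in KO cells, 23 of all 12091 tested. All 26 also fell in WT cells, 13 members passed in WT only, and 6 passed in neither (Taf1d, Ubtf, Fbl, Nop10, Npm1 and Ncl). KO vehicle and KO db-cAMP arrays were separate, with db-cAMP lower, for 39 of 45 members and 26.2% of all genes. By step, 1 of 7 RNA polymerase I genes, 4 of 9 snoRNP genes, 10 of 13 small subunit genes, 11 of 13 large subunit genes and 0 of 3 of the others fell. Rrp9, Rrp1b, Imp4 and Wdr43 had the largest KO falls, at -0.8, -0.78, -0.58 and -0.56. The count depends on the fit: without the intensity trend in the variance 1 member passed (Rrp1b), with the mean of all probe sets 15, and it was 12, 14 and 13 when the second KO vehicle array, the first KO db-cAMP array or the second one was left out in turn. In KO cells, too, 18S rRNA signals were higher with db-cAMP (24553 and 26853 against 38701 and 31397), and their part was not tested.

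**Figure D4:**
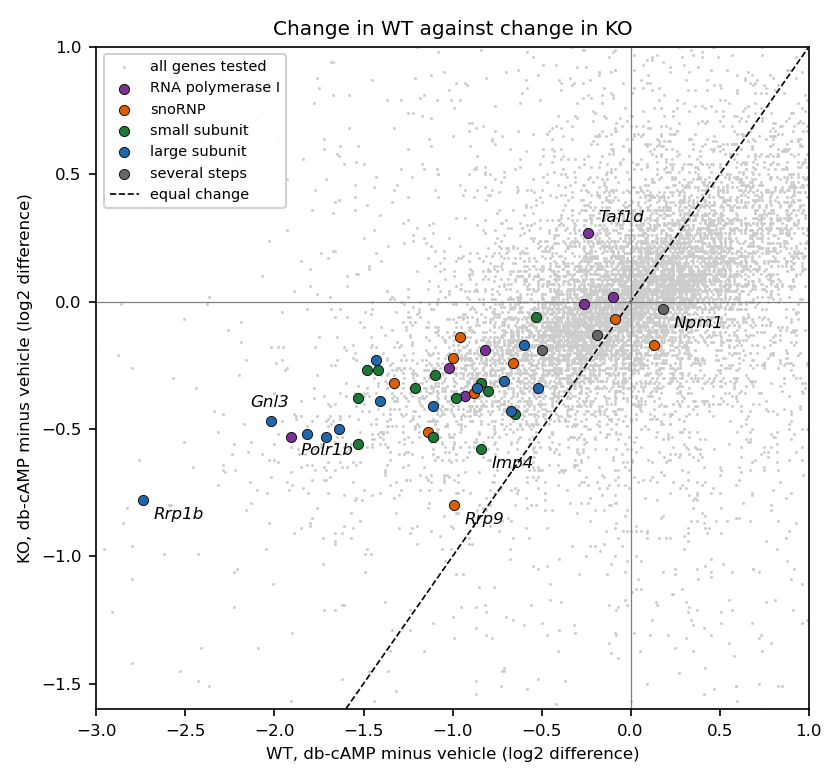
Log2 difference with db-cAMP in WT (x axis) and in KO (y axis) for the members, coloured by step, over all 12091 genes tested (grey; the axes leave out larger changes). Of 45 members 43 lie above the dashed line of equal change; Rrp9 lies close to it.

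The smaller KO change was tested as an interaction, the KO difference minus the WT difference. It was above 0 and passed in 29 of 45 members and below 0 in 0 (35 and 1 at an unadjusted p under 0.05, limma), where 6.7% of all genes tested passed above 0 and 5.09% below. The median was 0.57. Rrp1b had the largest at 1.96 ± 0.13 (adjusted p = 2.99e-06), followed by Gnl3 at 1.55 ± 0.12, Polr1b at 1.38 ± 0.22 and Grwd1 at 1.3 ± 0.13. Without the intensity trend 11 of the 29 passed, among them Rrp1b, Gnl3, Grwd1, Ppan, Wdr12, Tsr1 and Dkc1, while Polr1b did not. With the mean of all probe sets Rrp1b stood at 1.16, and Wdr12, Heatr1 and Noc2l no longer passed, at 0.22, 0.19 and 0.51, while Imp4, Noc3l and Ddx21 newly did. By step 3 of 7 RNA polymerase I genes, 6 of 9 snoRNP genes, 11 of 13 small subunit genes, 9 of 13 large subunit genes and 0 of 3 of the others passed. That count of 0 holds for the probe sets used: the second Ddx21 probe set passed at 1.3 and 1 of the other Ncl probe sets at 1.09, while with the mean of all probe sets Ddx21 passed at 0.81 and Ncl, at 0.33, did not. Members whose interaction did not pass although both falls did were Rrp9, Imp4, Noc4l, Pes1, Bop1 and Ebna1bp2, at 0.18, 0.26, 0.21, 0.24, 0.39 and 0.17. Over the 45 members the KO change was in the middle 28.5% of the WT change, and the 2 changes, which share no arrays, correlated at a Pearson r of 0.7 and a Spearman rho of 0.68 across genes. Over all genes tested these were 0.4 and 0.45. A line through 0 of the KO change on the WT change had a slope of 0.31 for the members and 0.24 for all genes tested. Genes on the same arrays are not independent replicates.

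Between genotypes, 13 members differed with vehicle and 39 with db-cAMP. With vehicle 11 members were lower in KO cells and 2 higher, where 5.78% of all genes tested were lower and 5.06% higher, and the median was -0.09. The higher ones were Nop58 at 0.39 and Ubtf at 0.36. The lower ones included Ncl at -0.53, Npm1 at -0.52, Nop10 and Gar1 each at -0.43, Wdr75 at -0.39 and Nip7 at -0.33, and the others were Mybbp1a, Nop56, Noc4l, Wdr12 and Gnl3, from -0.3 to -0.25. The number that passed, 13, became 6 with quantile normalization, 5 with the mean of all probe sets and 0 without the intensity trend (16 at an unadjusted p under 0.05, limma). It was 7, 7, 6 and 8 when the first or second WT vehicle array and the first or second KO vehicle array were left out in turn. Cytosolic ribosomal protein genes were lower in KO cells beside Ncl and Npm1, in 34 of 44 cases with a median of -0.52, and with quantile normalization in 1 case with a median of -0.02. Without the intensity trend 1 of these 44 genes passed as lower, at a median of -0.52.

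With db-cAMP 35 members were higher in KO cells and 4 lower, where 15.9% of all genes tested were higher and 13.3% lower, with a median of 0.56. This comparison shares its arrays with the 2 treatment comparisons. The KO arrays lay above both WT arrays for 38 of 45 members (32.1% of all genes). Rrp1b was higher by 1.67, Polr1b by 1.57, Grwd1 by 1.42, Rrs1 and Gnl3 each by 1.26 and Rrp12 by 1.22. The 4 lower members were Npm1 at -0.72, Ncl at -0.47, Nop10 at -0.42 and Fbl at -0.4, and with quantile normalization none of the 4 passed, Ncl and Fbl turning to 0.06 and 0.01. With the mean of its probe sets Ncl stood at -0.04 and did not pass, and the Ncl probe set with the largest WT fall was higher in KO cells by 1.07. Among the higher members Wdr12 no longer passed with the mean of its probe sets, at 0.18, nor did Taf1d, Heatr1 and Bop1. Of the 13 tested markers of other cell types 1 was lower in KO cells with vehicle (Cd8b1) and 3 with db-cAMP (Cd8b1, Cd79b and Ms4a1), and their part was not tested. KO and WT arrays also differed in poly-A controls, at 4130, 3699, 5188 and 4332 on the KO arrays against 1283 to 1911 on the WT arrays, and the 3-prime 18S probe set divided by the 5-prime one stood at 0.513 to 0.623 against 0.353 to 0.441. The mean signal of all probe sets was 941 to 976 on the KO arrays and 1062 to 1222 on the WT arrays. Hybridization controls, unlike the poly-A controls, were lower on the KO arrays, at 14330 to 15857 against 18077 to 27169. Their part in the genotype differences was not tested. Setting the arrays to an equal 75th percentile moved the median of all genes from -0.01 to -0.1 under vehicle and from 0 to -0.12 under db-cAMP. The share of all calls that were lower then went from 53.3% to 74.5% under vehicle, from 45.4% to 62.1% under db-cAMP and from 43.9% to 56.7% for db-cAMP in KO. With that scaling 16 members were lower and 1 higher under vehicle, and 4 lower and 31 higher under db-cAMP.

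Most other genes of the pathway fell as well. Of 128 further ribosome biogenesis genes tested, 103 fell and 2 rose in WT cells with a median of -0.71, and 40 fell and 0 rose in KO cells with a median of -0.23. Among 10 further RNA polymerase I genes 6 fell: Cd3eap, a subunit of the enzyme, changed most, from a mean of 656 to 142 (-2.23 ± 0.24), followed by Polr1e at -1.09, the nucleolar factor Tcof1 at -0.66 and Taf1a at -0.62. Among 9 snoRNP genes 8 fell, led by the assembly factors Naf1, Znhit6, Shq1 and Nufip1 at -1.86, -1.37, -1.22 and -1.13. Of 45 small subunit genes 36 fell, led by Pwp2 at -1.82, Aatf at -1.42, Tsr2 at -1.35 and Utp15 at -1.27, and 1 rose, the kinase Riok1 at 0.48. Of 50 large subunit genes 42 fell, led by Ccdc86 at -2.17, Nifk at -1.91, Nol8 at -1.85 and the helicase Dhx33 at -1.74, and 1 rose, Nop53 at 0.34. Of 14 exosome genes, which trim precursor ends, 11 fell, led by Exosc1 at -1.39, Exosc2 at -1.06, Exosc7 at -0.97 and Exosc4 at -0.78. Of 19 other RNA polymerase genes, taken by their Polr2 or Polr3 symbols, 13 fell, led by Polr3g at -1.79, Polr3d at -1.37, Polr2h at -1.01 and Polr3e at -0.95.

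**Figure D5:**
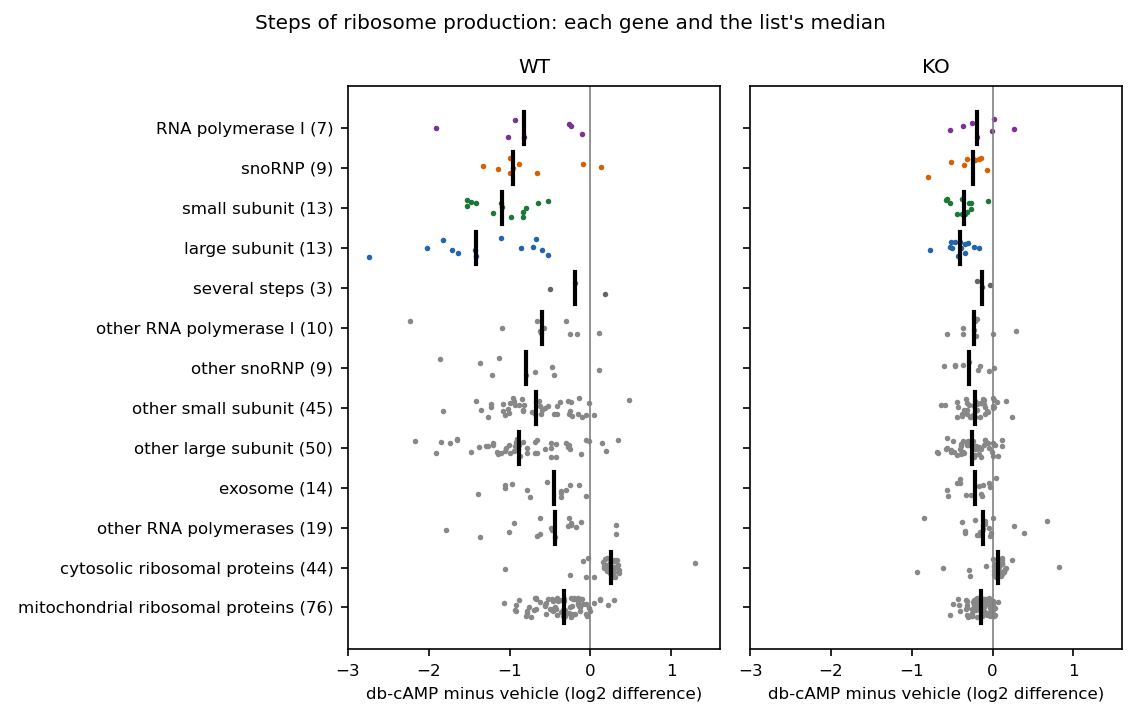
Log2 difference with db-cAMP (x axis) for each gene of each list (y axis, number of genes tested in brackets) in WT and KO; black bars are medians. Assembly factor lists lie left of 0, whereas cytosolic ribosomal proteins lie slightly right of it in WT, at a median of 0.25, and near 0 in KO, at 0.06.

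Few genes for cytosolic ribosomal proteins, the parts that the pathway assembles, fell. Of the 44 cytosolic ribosomal protein genes tested 19 rose in WT cells, 1 fell (Rpl12, at -1.06), and the median was 0.25. The arrays differed within groups. Relative to the mean of the WT vehicle arrays, the list's median stood at -0.09 and 0.09 on these and at 0.12 and 0.41 on the WT db-cAMP arrays. With quantile normalization the median was 0, and 0 rose and 1 fell. Without the intensity trend 0 rose and 1 fell, and with an equal 75th percentile 9 rose and 1 fell. In KO cells 0 rose and 0 fell (2 at an unadjusted p under 0.05, limma). Of 76 mitochondrial ribosomal protein genes 49 fell and 2 rose (Mrps18c at 0.29 and Mrpl58 at 0.22) in WT cells with a median of -0.33, and 11 fell in KO cells with a median of -0.14.

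Myc, the activator named above, fell with the members. Its probe set read 9547 and 10396 in WT vehicle, 2448 and 2587 in WT db-cAMP, 8257 and 8370 in KO vehicle and 5798 and 5756 in KO db-cAMP. The 4 groups were separate, in the same order as for Gnl3. Its differences were -1.98 ± 0.07 in WT and -0.52 ± 0.07 in KO, with an interaction of 1.46 ± 0.1. All 10 members with an E-box in the window fell in WT cells, with a median of -1.12 and a range of -1.82 to -0.67. Of 30 members with a window but no E-box 26 fell, with a median of -0.9 and a range of -2.74 to -0.09, which includes Rrp1b, Gnl3 and Polr1b. Over all 45 members 39 fell. The share of all tested genes with an E-box that fell is not given here. The part of Myc or of the E-box in the falls was not tested.

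Some members host small nucleolar RNA genes, by position in the RefSeq table. Of 45 members 9 have at least 1 such gene inside their span, 20.0%, against 2.13% of 12068 genes tested that were matched. The hosts are Taf1d with 6, Nop56 with 5, Nop58 with 4, Gnl3 and Wdr43 with 3 each, Ncl and Ppan with 2 each, and Dkc1 and Tsr1 with 1 each. Of the 9 hosts 7 fell in WT cells and 2, Ncl and Taf1d, did not pass. The small nucleolar RNAs themselves were not measured.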

How the data were processed

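The authors made the deposited intensity of each probe set, on a linear scale, with MAS5, per the submitters' processing notes. Its version: not given in the sources used here. Per the labels' protocols, total RNA was labelled with a 3-prime in vitro transcription kit. Without the lowest and highest 2% of probe sets every array has a mean of 500, while the mean of all its probe sets runs from 941 to 1222 and the median from 56.2 to 70.5. The number of arrays limits the precision.

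Members and lists were chosen with earlier results of these data known. Gene names came from the platform annotation, for probe sets with 1 symbol (34945 of 45101). The brightest probe set of a gene by mean log2 was used, values were taken as log2(intensity + 5.48), the 10th percentile of the deposited intensity values, and a gene was tested where 2 or more arrays had it above the array's median. Adding 5.48 understates changes of dim genes. limma 3.58.1 in R 4.3.3 (lmFit, eBayes with an intensity trend) fitted 1 term per group over all 8 arrays with 4 residual degrees of freedom, and p-values were adjusted over 12091 genes. Errors are standard errors of the fit. Tested on simulated data for db-cAMP in WT over 12091 genes, the fit recovered 51.5%, 58% and 83% of changes of 1.5-, 2- and 4-fold, and 4.33% of its calls were false. The simulated noise was normal, drawn from the fit's own variances, and few genes were changed, with 670 calls over 5 runs. In the data 2249 genes fell and 1984 rose in WT cells, so these rates may not hold there.

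All members are named, of the other pathway lists the 4 changed genes with the largest WT change and any that moved against their list, and Myc and Ifngr1. The ribosomal protein lists, made from symbols, and the snoRNA hosts were added after values were seen. Those lists are outside this rule, and Rpl12, Mrps18c, Mrpl58 and the cell type markers that changed were named after their values were seen. Same-numbered arrays did not deviate together (r from -0.02 to 0.02), so numbers were not used as pairs. Some of the listed cell type markers are not reported here. Python 3.11.15, pandas 2.3.3 and matplotlib 3.10.9 were used for motifs and figures.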

Additional observations from a re-analysis of the deposited data

Results flagged for a closer look

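The db-cAMP change of 29 members differed between KO and WT cells by the interaction term (limma, adjusted p under 0.05), in each case a smaller fall or no fall in KO. The values that follow are the KO difference minus the WT difference on the log2 scale. Among RNA polymerase I genes Polr1b stood at 1.38, Rrn3 at 0.76 and Mybbp1a at 0.63. Among snoRNP genes Dkc1 stood at 1.01, Gar1 at 0.81, Nop58 at 0.78, Nolc1 at 0.63, Nop56 at 0.51 and Nhp2 at 0.42. Among small subunit genes Rrp12 stood at 1.21, Wdr75 and Tsr1 at 1.15, Wdr43 at 0.98, Ltv1 at 0.86, Nob1 at 0.81, Pno1 at 0.59, Bysl at 0.57, Imp3 at 0.52, Heatr1 at 0.47 and Nop14 at 0.45. Among large subunit genes Rrp1b stood at 1.96, Gnl3 at 1.55, Grwd1 at 1.3, Rrs1 at 1.2, Ppan at 1.18, Wdr12 at 1.15, Nop2 at 1.02, Nip7 at 0.69 and Noc2l at 0.52. Of these 29 calls 10 also passed under all 16 settings other than the fit as reported.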

How the results depend on the processing

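With 2 arrays a group, the counts in WT cells were steadier than the others. Of the 39 members that fell in WT cells 33 also passed under all 17 settings other than the fit as reported. The same held for 1 of 26 in KO cells, 0 of the 13 vehicle differences and 28 of the 39 db-cAMP differences. The members' count in KO cells was 1 without the intensity trend and 15 with the mean of all probe sets, that of the interaction 11 without the trend, and that of KO against WT under vehicle 6 with quantile normalization, 0 without the trend (16 at an unadjusted p under 0.05, limma) and 5 with the mean of all probe sets. Leaving out 1 array at a time gave 12 to 26 members in KO cells and 6 to 15 under vehicle. Signs turned for Npm1 under vehicle (0.01), Fbl (0.01) and Ncl (0.06) under db-cAMP with quantile normalization, and for Ebna1bp2 in WT (0.54) and Mybbp1a under vehicle (0.11) with the mean of all probe sets; the cause was not tested. With a replicate block the counts were 40 in WT, 24 in KO, 29 for the interaction, 13 under vehicle and 39 under db-cAMP, so it moved no count by over 1.5 times.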
